A study of Drosophila melanogaster with 9 samples.

Results

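Predicted targets of miR-313-3p with lower expression in testes were examined in flies with and without the miR-310 cluster. The deposited gene table marks TargetScan predictions for each arm of miR-313. Members were the genes marked for the 3p arm and not for the 5p arm whose mean level over the 2 control libraries lay below a log2(RPKM) of 3.2 (RPKM is the read count scaled by transcript length and library size). There were 260 members among the 7539 genes of the table. They were compared with the 3338 genes marked for neither arm that lay below the same control level. Members were thus chosen by the control libraries, every difference from control shares values with that choice, and the differences are given as a description.

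The RNA-seq covered testes of adult Drosophila melanogaster, 3 to 5 days old and kept at 25 °C, with 2 libraries of Dm310s mutant flies and 2 libraries of Control flies. Both genotypes descend from one P-element stock, EP(2)2587, so the controls carry that background too, per the labels. Whether libraries of one genotype stem from different dissections is not in the labels, so any p-value below measures their spread alone, which may be technical. The series also holds 5 small RNA libraries, of which the testis libraries of the strain Canton-S, a common wild type, and of the strain Z56, with 1 library each, are used below.

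MicroRNAs are short RNAs that guide an Argonaute protein to partly complementary sites, mostly in the 3′ untranslated regions of messenger RNAs. Pairing of the seed, the bases next to the 5′ end of the microRNA, is the main feature on which TargetScan predicts a site. A bound messenger RNA is translated less and decays faster, so loss of a microRNA is known to raise its targets, usually by a small amount per gene. The 3p arms of miR-310, miR-311, miR-312 and miR-313 have the miR-92 family seed in common, so a site predicted for one of them is in general also predicted for the others and for miR-92a and miR-92b.

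The 3p arm of miR-313 itself was scarce in testes of these strains. It had 18 of 1395779 microRNA reads in Canton-S testes, 0.00129% (exact Clopper-Pearson 95% interval 0.000764 to 0.00204%), and 38 of 1378692 in Z56 testes, 0.00276% (0.00195 to 0.00378%). These intervals cover counting error only. The 4 arms of that seed in the cluster together made up 2.56% of reads in Canton-S testes and 4.81% in Z56 testes, mostly as miR-312-3p with 2.07% and 2.56%. miR-92a-3p and miR-92b-3p, which lie outside the cluster, made up 0.0961% and 0.228% together. No small RNA library of the mutant and no hairpin of the cluster was analysed here, so nothing checks the mutant label.

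The members were slightly higher in mutant testes than genes of similar level that carry neither mark. Their median difference, mutant minus control, was 0.0439 on the log2 scale, or 3.09% above control in the typical member. It was 0.00210 for the genes marked for neither arm at the same expression and 0.00445 for all 7539 genes. The members' median thus lay 0.0417 above that of the neither-arm genes, or 2.94%. Among genes with a mean of at least 2 over all libraries, which left 138 members, it lay 0.0241 above. Of the 260 members, 157 had a positive difference and 103 a negative one, so 60.4% were positive, against 50.9% of the neither-arm genes. Testes are bulk tissue, so fewer cells of a type and less RNA per cell cannot be told apart.

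The groups of libraries did not overlap in 127 members, 48.8%, against 48.2% of the neither-arm genes and 50.4% of all genes. In 91 of them, 35.0%, both mutant libraries lay above both control libraries, as in 24.6% of the neither-arm genes and 26.2% of all genes. In 36, 13.8%, both mutant libraries lay below both controls, against 23.6% of the neither-arm genes and 24.2% of all genes. The members thus held a larger share of genes higher without overlap and a smaller share of genes lower without overlap.

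The spread of the differences was narrower in members, more so on the lower side. The 10th percentile of the difference was -0.15 in members and -0.27 in neither-arm genes, and the lower quartile was -0.05 against -0.11. The upper quartile was 0.15 against 0.12, and the 90th percentile was 0.26 in both. Differences below -0.3 were seen in 8 members, 3.08%, against 8.18% of neither-arm genes. Differences above 0.3 were seen in 14 members, 5.38%, against 7.46%. Both shares were smaller in members, the lower one by more.

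**Figure D1:**
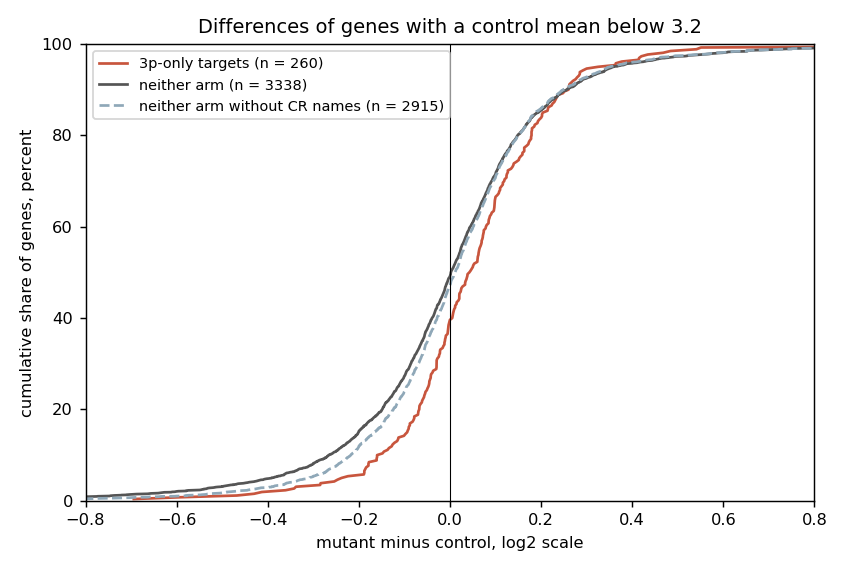
Cumulative share of genes (vertical axis, percent) against the difference mutant minus control (horizontal axis, log2 scale) for the 260 members, the 3338 neither-arm genes and the 2915 of these without CR names, all with a control mean below 3.2; the axis is limited to 0.8 on either side and leaves out the few genes beyond it. The members' curve runs below the others for negative differences and meets them near 0.26, the 90th percentile of members and neither-arm genes.

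Spread between libraries of one genotype and the mix of gene kinds also separated the sets. The median absolute difference between the 2 controls was 0.0841 in members and 0.105 in neither-arm genes, and between the 2 mutants it was 0.0973 and 0.122. No member had a CR name, the form given to noncoding RNA genes, whereas 423 of the 3338 neither-arm genes had one. Without these, 2915 neither-arm genes were left, with a median difference of 0.0115, a 10th percentile of -0.22, quartiles of -0.09 and 0.12, 5.35% below -0.3 and 7.20% above 0.3. The gaps to the members, with quartiles of -0.05 and 0.15 and shares of 3.08% and 5.38%, were then of like size on both sides. At the outer percentiles they were not. The 10th percentile was -0.15 in members against -0.22, and the 90th was 0.26 against 0.25. The members' median then lay 0.0323 above. Of those 2915 genes, 25.8% were higher and 21.6% lower without overlap. The part of replicate spread in the narrower range of the members was not tested.

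Each of the 4 mutant and control library pairs gave a higher median in members than in neither-arm genes. Mutant replicate 1 lay above control replicate 1 by 0.0541 in the median member and by 0.00841 in the median neither-arm gene. Against control replicate 2 it lay above by 0.0747 and 0.0109. Mutant replicate 2 lay above control replicate 1 by 0.0218 in the median member and had a median of -0.00716 in neither-arm genes. Against control replicate 2 the medians were 0.0351 and -0.00923. The shift of members over neither-arm genes therefore ranged from 0.0289 to 0.0638, with mutant replicate 1 giving the larger value against either control. The 4 pairs share libraries and are not independent.

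Between libraries of one genotype the sets lay closer together. The median of control replicate 2 minus control replicate 1 was 0.00304 in members and 0.00591 in neither-arm genes, a shift of -0.00287. The median of mutant replicate 2 minus mutant replicate 1 was -0.0434 and -0.0301, a shift of -0.0133. The mutant libraries thus differed from each other, in members, by about as much as the median mutant differed from control. The median level over members was 2.06 and 2.02 in the control and 2.06 in both mutant libraries. The median level of the set thus lay higher in mutant libraries than in control replicate 2, and not higher than in control replicate 1.

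**Figure D2:**
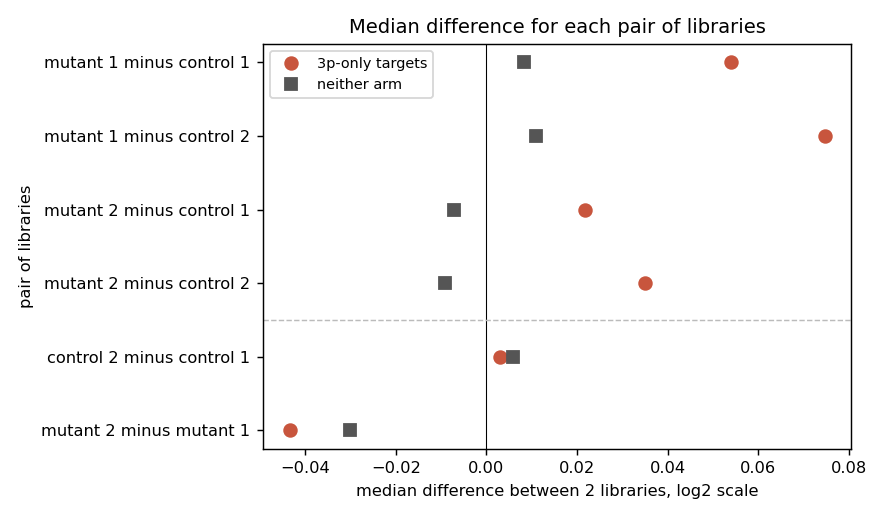
Median difference between 2 libraries (horizontal axis, log2 scale) for each pair named on the vertical axis, with members as circles and neither-arm genes as squares; the dashed line separates the 4 mutant and control pairs from the 2 pairs of one genotype. Members lie to the right of neither-arm genes in the 4 upper rows, by 0.0289 to 0.0638, and to the left in the 2 lower rows.

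Within the members, the shift was found at all but the highest control levels. Levels of the members ran from a control mean of 1.04 to 3.19, with a median of 2.05, slightly under the 2.15 of neither-arm genes. The 79 members with a control mean from 1.0 to 1.6 had a median difference of 0.0599 against 0.0374 in 700 neither-arm genes. The 62 members from 1.6 to 2.1 had 0.0522 against 0.00143, and the 50 members from 2.1 to 2.6 had 0.0674 against -0.0165. The 69 members from 2.6 to 3.2 had -0.00356 against -0.00816 in 937 neither-arm genes. The difference of the medians was thus 0.0225, 0.0507, 0.0839 and 0.00460 in order of level, with no test of this pattern. The small value of the highest range did not go on above it. The 183 genes of the same marks at or above 3.2 had a median difference of 0.0435. Of these, 62.8% were positive, against 49.9% of neither-arm genes at or above 3.2. The lowest level is also the one where neither-arm genes lay highest; the table lists no gene below a log2(RPKM) of 1 in any library, and the part of that limit was not tested.

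**Figure D3:**
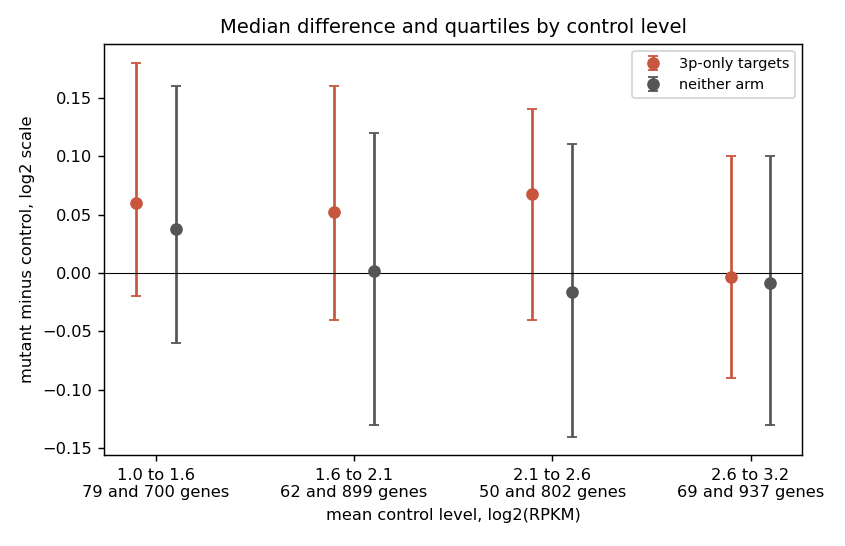
Median difference mutant minus control (vertical axis, log2 scale) in 4 ranges of mean control level (horizontal axis, log2(RPKM), with the number of members and of neither-arm genes); points are medians and bars the lower and upper quartiles over genes. The medians of members lie above those of neither-arm genes by 0.0225 to 0.0839 in the lower 3 ranges and by 0.00460 in the highest one.

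The threshold of 3.2 fell among genes that did not stand apart. Just inside it were disp at a control mean of 3.19, CG31808 at 3.17 and CG12024 at 3.17, with differences of -0.22, -0.08 and 0.42. Just outside were CG8331 at 3.204, CG31342 at 3.21 and Rab2 at 3.21, with differences of 0.12, -0.07 and 0.04. At the other end, the members with the lowest control means were nmo, a kinase of the Nemo family, at 1.04 and baz, at 1.05.

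Single members rarely passed a test of their own. In limma over all 7539 genes with Benjamini-Hochberg adjustment, 3 of the 260 members had an adjusted p under 0.05, or 1.15%, against 1.50% of all genes and 1.56% of the neither-arm genes at the same expression. Of these, 2 rose and 1 fell, where 0.544% of all genes rose and 0.955% fell. At an unadjusted p under 0.05, 30 of the 260 members were higher and 11 lower. Of the 3338 neither-arm genes at the same expression, 292 were higher and 298 lower. Of all 7539 genes, 617 (8.18%) were higher and 714 (9.47%) lower. Without mutant replicate 2 no member was called by limma (34 had an unadjusted p under 0.05), and without control replicate 1 only 1 was. Because the control values chose the members, nothing is read from these counts.

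CG5466 and CG2233 had by far the largest rises. CG5466 read 1.34 and 1.59 in control against 3.02 and 2.78 in mutant libraries. Its mean went from 1.46 ± 0.18 (SD, n = 2) to 2.90 ± 0.17 (n = 2), a 2.70-fold rise (difference 1.44, SE 0.13, limma adjusted p 0.0184). CG2233 read 1.85 and 1.59 in control against 3.17 and 3.06 in mutant libraries. Its mean went from 1.72 ± 0.18 to 3.12 ± 0.07 (SD, n = 2 each), a 2.63-fold rise (difference 1.39, SE 0.12, limma adjusted p 0.0141). In both genes each mutant library lay more than 1 above each control library. Without mutant replicate 2 the adjusted p was 0.0513 for CG5466 and 0.0622 for CG2233, and without control replicate 1 it was 0.0750 for CG5466.

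DOR, a regulator of autophagy and a coactivator of ecdysone receptor signalling, was the only member called lower. It read 2.56 and 2.42 in control against 1.87 and 1.73 in mutant libraries. The mean went from 2.49 ± 0.10 to 1.80 ± 0.10 (SD, n = 2 each), to 61.8% of control (difference -0.69, SE 0.10, limma adjusted p 0.0492). This direction is opposite to that of most members. The call was lost whichever library was left out, with adjusted p from 0.0734 to 0.227, and also without the mean-variance trend (0.0501) and with genes of a mean of at least 2 alone (0.0508).

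Other members had larger differences than the spread of their own libraries and were not called. RASSF8, a Ras association domain protein, read 1.53 and 1.54 in control against 2.16 and 2.00 in mutant libraries (limma adjusted p 0.0704). Obp18a, an odorant-binding protein gene, read 1.22 and 1.27 in control against 1.75 and 1.70 in mutant libraries (limma adjusted p 0.0727). cal1, which loads the centromeric histone H3 variant, read 2.38 and 2.51 in control against 2.96 and 2.86 in mutant libraries (limma adjusted p 0.0892). In all 3 genes the mutant libraries were the higher ones, without overlap. CG6996 had a difference of 0.55, CG17712 of 0.43 and CG12024 of 0.42, with limma adjusted p of 0.0936, 0.102 and 0.0676. CG6996 overlaps the noncoding gene CR32224 in the RefSeq annotation, which had a difference of 0.54, and whether counting used strand is not given in the sources used here. RASSF8 overlaps CR45208, which had 0.23.

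On the lower side, CG6163 read 2.28 and 2.37 in control against 1.84 and 1.63 in mutant libraries (limma adjusted p 0.0752). CG2162 read 2.79 and 2.81 in control against 2.33 and 2.34 in mutant libraries (limma adjusted p 0.0669). These were the largest negative differences after DOR, -0.59 and -0.47. CG14711 had -0.43, CG5567 -0.41 and CG10208 -0.36, with limma adjusted p of 0.0806, 0.112 and 0.352. The value of CG10208 rests on single libraries: it was -0.163 without control replicate 1, -0.209 without mutant replicate 2 and -0.558 without control replicate 2. sage, a helix-loop-helix factor known from the salivary gland, had -0.34 (adjusted p 0.148). Arr1, an arrestin of photoreceptor cells, also had -0.34 (adjusted p 0.180). CG14711 overlaps CG6808, which had -0.50, and CG5567 overlaps CR45175, which had -0.25. The 89 members that lay higher without overlap and were not called had differences from 0.06 to 0.55 with a median of 0.18. The 35 that lay lower without overlap and were not called ran from -0.59 to -0.05 with a median of -0.18. The remaining 133 members, whose libraries overlapped, ran from -0.28 to 0.26, with 66 positive and 67 negative.

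**Figure D4:**
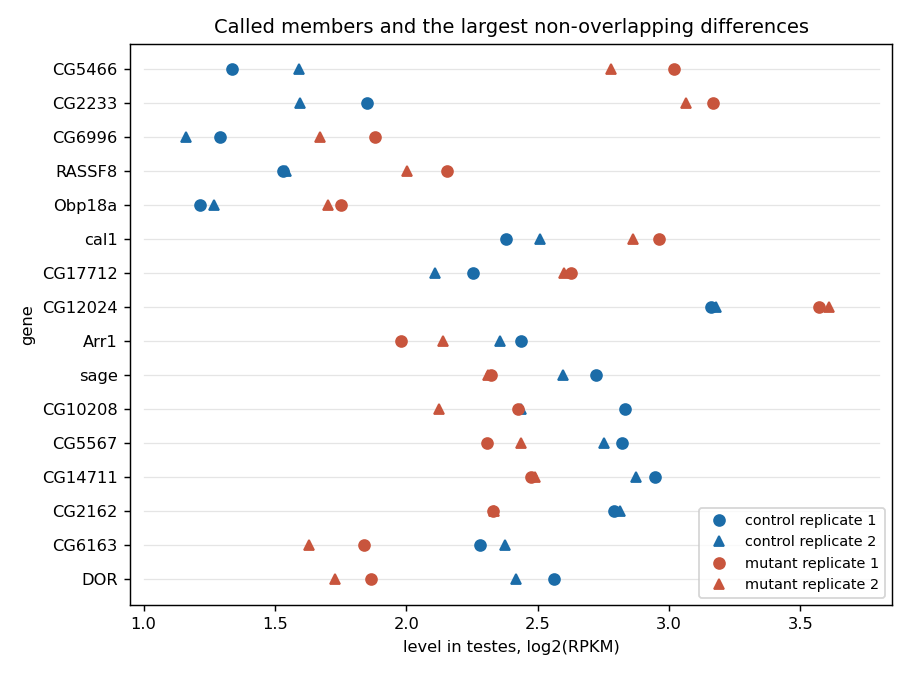
Level in each of the 4 testis libraries (horizontal axis, log2(RPKM)) for the 3 called members and the other members among the 8 largest rises and 8 largest falls without overlap (vertical axis, ordered by difference); blue marks are control and red marks mutant libraries, circles replicate 1 and triangles replicate 2. Only CG5466 and CG2233 show mutant libraries more than 1 above their controls, and in each gene drawn the blue and red marks do not overlap.

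The members span many cell functions. For 127 of them a role was given from general knowledge in 8 groups, drawn up after the values were seen, and the other 133, of which 118 carry only a CG number, were left without one. Medians and counts of these groups are descriptive, and are to be read beside the 26.2% of all genes and 35.0% of members that lay higher without overlap, the 24.2% and 13.8% that lay lower, and the 60.4% of members with a positive difference. None of the members named for its role below was called, except DOR.

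Of the 11 members that handle RNA, 10 had a positive difference, 9 of them without overlap, and the median was 0.0653. This group has no test, and 26.2% of all genes lay higher without overlap. The P-element splicing repressor Psi read 2.12 and 2.18 in control against 2.31 and 2.44 in mutant libraries. The germ-line translational regulator mei-P26 read 1.61 and 1.75 in control against 1.91 and 1.77 in mutant libraries, so the higher control lay just under the lower mutant. The KH-domain protein gene Dp1 had a difference of 0.18 and the CCR4-NOT subunit gene Not3 one of 0.07. AGO1, the Argonaute protein that carries microRNAs, was the exception, at 1.61 and 1.56 in control against 1.56 and 1.59 in mutant libraries.

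The 10 genes of glycosylation and amino sugars had the highest group median, 0.0976, with 8 positive and 5 higher without overlap, where 26.2% of all genes lay higher. Mgat1, the transferase that starts complex N-glycans, read 2.72 and 2.56 in control against 3.07 and 2.94 in mutant libraries (difference 0.36, limma adjusted p 0.160). pgant6, which starts mucin-type O-glycans, had a difference of 0.20, and GCS1, the glucosidase that trims new N-glycans, one of 0.11. No gene of this group lay lower without overlap, and its lowest difference was -0.02.

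Signalling genes numbered 22, with 15 positive, 9 higher and 4 lower without overlap, and a median of 0.0572. Over all genes 26.2% lay higher and 24.2% lower. Ric, a Ras-like GTPase, read 1.67 and 1.65 in control against 1.94 and 1.94 in mutant libraries (difference 0.29, limma adjusted p 0.183). Pi3K68D, a class II phosphoinositide kinase, had a difference of 0.18, and Sara, an endosomal adaptor of Smad signalling, one of 0.22. disp, which releases the Hedgehog ligand from cells, had -0.22 and the kinase gene Pak3 -0.16. The gene disp overlaps CG34287, which had -0.23. Members of this group thus lay on both sides, with RASSF8 at one end and Arr1 at the other.

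The 27 genes of chromatin and transcription had 15 positive differences and a median of 0.0242, with 7 higher and 3 lower without overlap, against the same 26.2% and 24.2% of all genes. cal1 was highest. Pcl, a Polycomb-associated protein gene, had 0.19, and Su(Tpl), an elongation factor gene, 0.20. E(bx), the large subunit of the nucleosome remodelling factor NURF, had -0.19. Medians of the other 4 groups ran from 0.00439 to 0.0694. Genes of adhesion, polarity and cytoskeleton (17, median 0.0204) ran from the integrin gene scb at -0.24 (-0.154 without mutant replicate 1) to the basement membrane gene BM-40-SPARC at 0.36, with the polarity gene baz at 0.26. Genes of membrane traffic and autophagy (17, median 0.0204) ran from DOR at -0.69 to the endocytic scaffold gene Dap160 at 0.25. Genes of metabolism and transport (17, median 0.0694) ran from the fatty acid elongase gene Baldspot at -0.25 to Obp18a at 0.48, with the ubiquinone synthesis gene Coq2 at 0.29. The 6 ubiquitin genes had a median of 0.00439, with the deubiquitinase gene Usp1 lowest at -0.16. The 118 CG-numbered genes had a median of 0.0431 and 69 positive differences, close to the whole set, and the last 15 had a median of 0.00617.

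**Figure D5:**
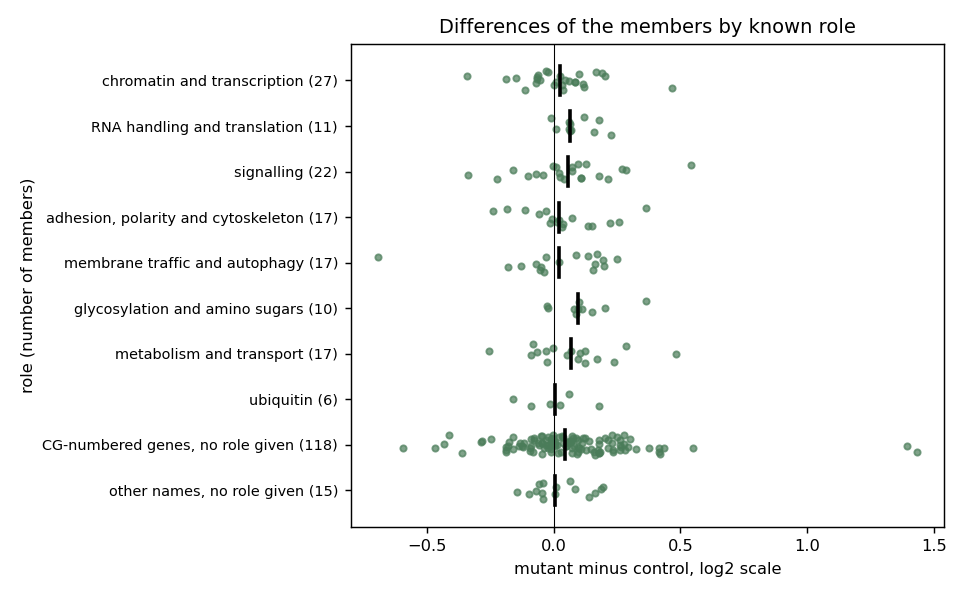
Difference mutant minus control (horizontal axis, log2 scale) of each of the 260 members, by known role (vertical axis, with the number of members); points are genes, spread vertically at random, and black bars are medians. Group medians lie between 0.00439 and 0.0976, and the points beyond 1 are CG5466 and CG2233.

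Members were few in any one named pathway. The 14 gene lists used for this purpose held 155 measured genes, with a median difference of 0.00756. Over the whole table limma called none of them, where it called 1.50% of all genes. An unadjusted p under 0.05 was seen in 18 of the 155, 8 higher and 10 lower. Of all 7539 genes, 617 (8.18%) were higher and 714 (9.47%) lower at that unadjusted p. Nothing is read from the 18. Of the 155, 13 were members, a larger share than the 260 of all 7539 genes. The lists include the targets reported for the cluster. There were 4 lists that held no member: Notch (11 measured genes), Hippo (4), kinesins and dynein (23) and Rab GTPases (19). In the Wnt list (10 measured, 6 of them positive) the members were arm, the beta-catenin that carries the signal, and sgg, the kinase that marks it for destruction. arm read 2.68 and 2.59 in control against 2.55 and 2.52 in mutant libraries (difference -0.10, adjusted p 0.578). sgg read 1.08 and 1.06 in control against 1.09 and 1.04 in mutant libraries, and it overlaps CR45197, which was called higher by 0.73.

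Each of the other lists held 1 or a few members. The Hedgehog list (6 measured) held disp. The EGFR and MAPK list (5) held the GTPase gene Ras85D at 0.00803, and the BMP and activin list (8) the Smad gene Smox at 0.11. The JAK-STAT list (8) held the transcription factor gene Stat92E at -0.07. The list of growth and cell cycle kinases (22) held Sik3 at 0.13, the actin list (17) the Arp2/3 subunit gene Arp3 at 0.0204, and the adhesion list (6) the integrin genes mys at -0.03 and scb. All 6 measured adhesion genes, of 29 listed, had negative differences, with a median of -0.134, and none was called. Negative differences were seen in 3667 of all 7539 genes. No other list had all its measured genes on the same side, and this was not tested. The microRNA pathway list (14) held AGO1. Of the 4 measured targets reported for the cluster, 3 were members. Besides arm these were the nuclear receptor gene Hr96 and the dystroglycan gene Dg. Hr96 read 1.59 and 1.73 in control against 1.79 and 1.69 in mutant libraries, and Dg at 1.02 and 1.10 in control against 1.17 and 1.03 in mutant libraries. Both overlapped between genotypes.

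The libraries also differed in RNA of other tissues. Summed RPKM of the 6 measured gut markers was 41.3 and 44.9 in control and 130 and 218 in mutant libraries, and 2 of the 6 were called higher. The 1 measured fat body marker, Adh, stood at an RPKM of 11.3 and 10.3 in control and 18.7 and 20.9 in mutant libraries and was called higher. The 13 accessory gland markers summed to 4731 and 4875 in control and 3863 and 4401 in mutant libraries, with 1 called lower, and the 4 duct and bulb markers to 678 and 341 against 423 and 524. The 15 markers of the male germ line summed to 2303 and 2361 in control and 2530 and 2526 in mutant libraries. Sums weigh the most abundant genes most. The median difference over single markers was -0.0793 in the germ line and 0.0180 in the accessory gland, against the direction of both sums. The 5 markers of somatic cyst and hub cells summed to 31.5 to 34.6 in all 4 libraries. The 3 muscle markers ranged from 29.6 to 37.9, the 1 hemocyte marker from 3.88 to 4.87, and none of 13 neuronal markers is listed in the table. Of all these markers only Mlc1 and Stat92E were members. The part of other tissues in the differences of the members was not tested.

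Higher expressed 3p targets had a median difference of similar size. The 183 genes with the same marks and a control mean at or above 3.2 had a median difference of 0.0435, where the 3517 neither-arm genes of that range had 0. Of the 183 genes, 38.8% lay higher and 15.3% lower without overlap, and 62.8% were positive. Of the 3517 neither-arm genes, 26.3% lay higher and 26.3% lower, and 49.9% were positive. Over all genes 26.2% lay higher and 24.2% lower. A difference between the 2 ranges was not tested. At the members' own level, the 114 genes marked for the 5p arm only had a median of 0.0170, with 24.6% higher and 20.2% lower without overlap. These shares lay near the 24.6% and 23.6% of neither-arm genes at that level. The 27 genes marked for both arms had a median of 0.0118, with 33.3% higher and 22.2% lower without overlap. Of these 27 genes, 63.0% were positive, against 60.4% of the members.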

How the data were processed

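The deposited RNA-seq table holds log2(RPKM) per gene and TargetScan marks, per the file headers. The submitters' processing notes name TopHat; counting tool and build: not given in the sources used here. All values lie above 1.00 and the sorted columns differ by at most 0.0444, as quantile normalization leaves, so depth is unknown. There are 6 members that share an identical profile with another gene. For small RNAs, the deposited read counts were used, with rows of one name merged at the highest count; the authors' deposited RPM values were not needed.

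The fit was limma's (version 3.58.1, R 4.3.3, eBayes with a mean-variance trend) over all 7539 genes, on the deposited scale without a pseudocount. It was run on simulated normal values with the same spread for every gene, which cannot check the trend or unequal spread. A replicate block was an alternative. Named genes were called members, the 8 largest non-overlapping differences each way, those next to the threshold of 3.2, the 2 lowest and up to 3 per list; other names in the role groups were picked after their values were seen. Members and lists were chosen with earlier results of these data known. Names of 256 members matched the name table. Overlapping genes come from RefSeq (Release 6), whose coordinates are not printed.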

Additional observations from a re-analysis of the deposited data

How the results depend on the processing

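The median difference of the members stayed positive and moved by less than the spread between replicates (0.0218) under all 16 alternatives run for it. This includes choosing the genes by the mean of all 4 libraries (0.0376) or by the mutant mean (0.0332). With 1 library left out it ranged from 0.0288 without mutant replicate 1, over 1.5 times below 0.0439, to 0.0632 without mutant replicate 2. Their shift over neither-arm genes, 0.0417, stayed positive. It moved by more than its own spread between replicates (0.00680) in 6 alternatives, and by less in 12. It was 0.0241 for genes with a mean of at least 2 and 0.0314 on the log2(RPKM + 1) scale. Without CR-named genes (added after seeing the data) it was 0.0323. When chosen by control replicate 2 and compared with control replicate 1 it was 0.0330, and when chosen by the mutant mean 0.0434. With the neither-arm median weighted by bins of control level it was 0.0369. With 1 library left out it ranged from 0.0285 to 0.0525. The share of positive members ranged from 57.3% to 67.3% with 1 library left out. Calls among members fell to 0 without mutant replicate 2, to 1 without control replicate 1 and when chosen by control replicate 1 and compared with control replicate 2, and ranged from 0 to 2 over the libraries left out; where limma called 0, 34 members had an unadjusted p under 0.05. Members without overlap numbered 72 of 138 with a mean of at least 2, 196 when chosen by control replicate 2, and 184 to 206 with 1 library left out, where fewer libraries make overlap rarer.

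Over the whole table, 113 genes were called, 22 to 99 with 1 library left out (22 without control replicate 1, 34 without control replicate 2, 26 without mutant replicate 2) and 238 with the replicate block, which left 3 members called. Libraries of one number deviated together only weakly (correlation 0.06 over genes). A weak correlation over genes cannot show whether such libraries were collected or prepared together. Differences near 0 changed sign with 1 library left out: they ranged from -0.158 to 0.000727 for CG31808, -0.0618 to 0.139 for Rab2, -0.0313 to 0.175 for nmo, -0.0247 to 0.0219 for sgg, -0.140 to 0.156 for Ras85D, -0.154 to 0.0135 for Stat92E, -0.175 to 0.216 for Arp3, -0.119 to 0.0604 for mys, -0.0361 to 0.108 for Dg and -0.0330 to 0.0150 for AGO1. Centring the libraries gave sgg 0.00583. The cause was not tested. With 2 libraries a group and depth unknown, differences of single genes below their SE (0.07 to 0.17 over the named genes) cannot be resolved. A difference above its SE is not resolved by that alone. RASSF8, at 0.541 with an SE of 0.096, had a limma adjusted p of 0.0704.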
